A study of Mus musculus with 10 samples.

Results

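The carbonic anhydrase genes Car2, Car3, Car4, Car5b, Car7, Car8, Car9, Car12, Car13 and Car14 were followed in the uterus at gestation day (GD) 3.5. They are 10 of the 16 carbonic anhydrase genes looked up among 45706 genes with counts, and were found by matching gene identifiers to these symbols on the GRCm38 annotation. The 10 were chosen by their counts in these same uteri, with the genotype contrast in view, so their differences between genotypes are given as a description, without a test. All 10 passed the filter of a mean of at least 1 count per uterus.

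RNA of whole uteri was sequenced from 5 pregnant adult females of each genotype, the control being Arid1a f/f and the other Ltf iCre/+ Arid1a f/f, called the mutant hereafter. Both genotypes carry the floxed Arid1a alleles, in a mixed C57BL/6 and 129 background, and the controls carry no iCre. In mutants, iCre is expressed from the lactoferrin (Ltf) locus, which is active in mature endometrial epithelium, and Arid1a, a subunit of the SWI/SNF chromatin remodeling complex, is meant to stay intact in the stroma, vessels and myometrium sequenced alongside. The authors state that this iCre is reportedly active in neutrophils and other myeloid cells too. They could not exclude an effect of Arid1a loss in those cells. Each uterus gave between 59296537 and 72702411 counts, so that 3 counts stood at 0.0418 to 0.0507 CPM (counts relative to the TMM-scaled size of the library). The deleted gene, Arid1a, was at 192 to 251 CPM in controls and 165 to 208 CPM in mutants, with 4 of 5 mutants below every control (log2 fold change -0.20, standard error 0.09, adjusted p = 0.201 in edgeR's test), and Ltf was at 2.22 to 11.7 and 23.6 to 2831 CPM.

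Carbonic anhydrases interconvert carbon dioxide and water with bicarbonate and a proton, and the catalytic members hold a zinc ion with histidine side chains. The family is divided by place in the cell: cytosolic, mitochondrial, anchored to or spanning the plasma membrane with the active site outside, and related proteins that have lost catalysis. In the uterus the enzymes are known from the endometrial epithelium and vessels, where they supply bicarbonate to the luminal fluid and exchange carbon dioxide with blood.

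The difference between catalytic family members and an acatalytic one can be read in their coding sequence. The stretches below, from the coding strand of GRCm38 with GENCODE exons, span the codons aligned with the first and second zinc-binding histidines of Car2, which are set in capitals.
Car2: atccagtttCACtttCACtggggctcatct
Car9: ttgcagttgCATctaCACtggggaacttca
Car4: gtacagttgCACctgCACtggtcaaatggg
Car5b: aagcagtttCATtttCATtggggagccatt
Car11: agtgaactgCGCctgCTAtttggagctcga
They are shown for 4 catalytic members whose counts differed, with Car11, a family gene outside the 10, as an acatalytic protein. They lie in exon 3 of Car2 (chr3:14895060-14895089, plus strand), exon 4 of Car9 (chr4:43508955-43508984, plus), exon 4 of Car4 (chr11:84964158-84964187, plus), exon 4 of Car5b (chrX:163991402-163991431, minus) and exon 4 of Car11 (chr7:45702539-45702568, plus). All 3 histidine codons were found in Car2, Car9, Car4 and Car5b, and 0 in Car11.

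Across the 10 members, Car2, Car9 and Car13 were higher and Car4, Car5b, Car7 and Car8 lower in every mutant uterus than in every control. In edgeR's quasi-likelihood fit over all genes, 6 of the 10 (60.0%), which were these without Car7, lay under the threshold of 0.05 for the Benjamini-Hochberg adjusted p, where 9.70% of the 25146 tested genes passed. They were 3 each way, where 5.19% of all genes passed as higher and 4.51% as lower. The values of 7 members did not overlap between the genotypes, against 10.7% of all genes. The median log2 fold change was -0.86 over the members and 0.03 over all genes, and the median absolute log2 fold change was 1.28 against 0.31. Nothing is read from these shares, since the same contrast chose the members, and the side of the threshold on which a member lies only describes the values that chose it.

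**Figure D1:**
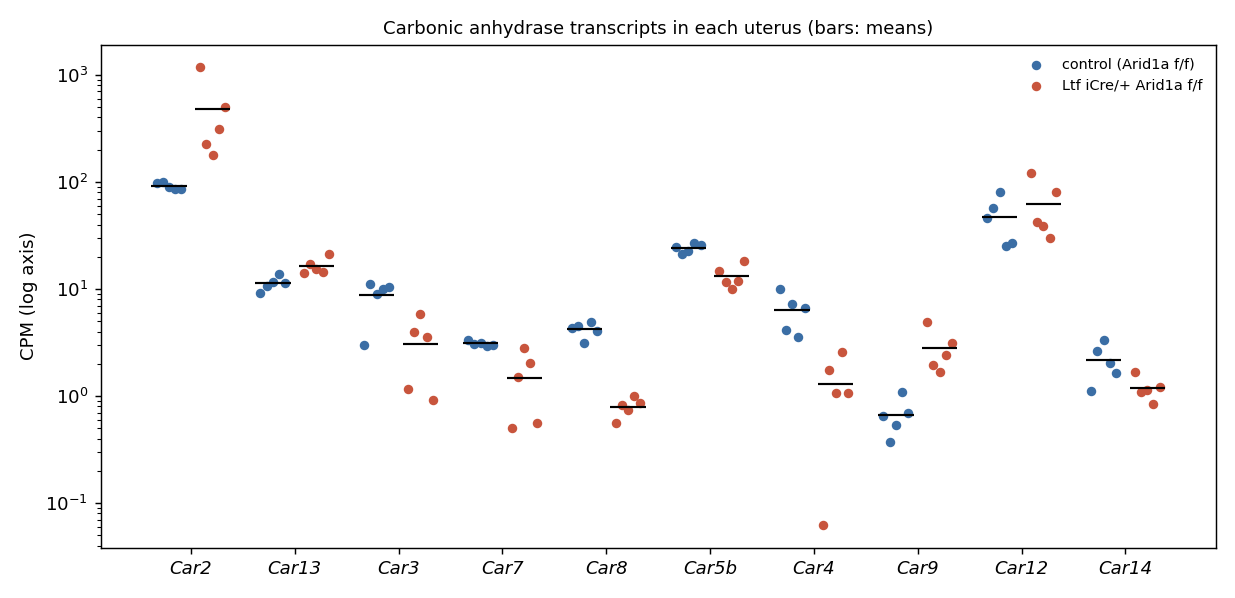
CPM of the 10 carbonic anhydrase genes on a log axis, 1 point per uterus in replicate order from left to right, blue for control and red for mutant, with bars at the means (n = 5 each). Car2, Car9 and Car13 lie above every control and Car4, Car5b, Car7 and Car8 below every control in all 5 mutant uteri, while Car3, Car12 and Car14 overlap.

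Car2 (ENSMUSG00000027562, chr3:14886273-14900770), the fast cytosolic enzyme of secretory epithelia, red cells and osteoclasts, was the most abundant member. Its values were 97.5, 99.0, 90.5, 85.6 and 85.1 CPM in control replicates 1 to 5, and 1172, 224, 178, 311 and 500.3 CPM in mutant replicates 1 to 5. Every mutant uterus lay above every control, and replicate 1 was far above the rest. The means were 91.5 ± 6.48 and 477 ± 408 CPM (SD, n = 5 each), 5.21-fold higher, with a fitted log2 fold change of 2.38 (standard error 0.45). The size of the difference rested in part on replicates 1 and 5, which stood apart from the other mutant uteri on the first principal component (49.0 and 65.6, against 9.4 to 20.7 in the others and -38.5 to -15.5 in controls). Without replicate 1 the log2 fold change was 1.73, and without both it was 1.38.

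Car13 (ENSMUSG00000027555, chr3:14641727-14663002), a second cytosolic enzyme, differed less. It had 9.09, 10.7, 11.7, 13.8 and 11.4 CPM in controls and 14.2, 17.3, 15.4, 14.4 and 21 CPM in mutant uteri. The groups did not overlap, though the highest control and the lowest mutant uterus nearly met. The means were 11.3 ± 1.71 and 16.5 ± 2.82 CPM, 1.45-fold higher in mutants (log2 fold change 0.54, standard error 0.15). Its side of the threshold changed when any 1 of control replicates 1, 2, 3 and 5 or mutant replicates 2, 3 and 5 was left out, at log2 fold changes of 0.44 to 0.56.

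Car3 (ENSMUSG00000027559, chr3:14863512-14872523), a cytosolic isozyme of low activity that is abundant in skeletal muscle and adipose tissue, was lower on average in mutants. Controls had 3.02, 11.1, 8.99, 9.97 and 10.4 CPM and mutant uteri 1.16, 3.95, 5.80, 3.53 and 0.911 CPM. The groups overlapped through control replicate 1, the lowest control by a wide gap. Its log2 fold change was -1.50 (standard error 0.50), and -1.86, on the other side of the threshold, without mutant replicate 3. Control replicate 1 was also the lowest control for summed skeletal muscle markers (87.5 CPM against 138 to 239 in the other controls and 74.0 to 132 in mutants), a list led by Acta1, an actin that other muscle also makes. Myh1, Myh4 and Pvalb, which define fast muscle fibers, were at or near 0 in every uterus (at most 0.0157 CPM). The muscle creatine kinase Ckm, overlapped on the opposite strand by A930016O22Rik, was not: it had 0.685, 7.64, 5.67, 3.31 and 3.83 CPM in controls and 0.204, 1.1, 0.948, 0.639 and 0.101 CPM in mutant uteri. As for Car3, control replicate 1 was the lowest control and overlapped the mutants, and the log2 fold change of Ckm was -2.82 (standard error 0.70, adjusted p = 0.0282 in edgeR's test). It was the 1 gene of 5 tested in this list that passed (9.70% of all tested genes). The other tested genes overlapped between the genotypes. Their log2 fold changes were -0.88 for Acta1 (standard error 0.28), 0.01 for Tnni2 (0.31), -0.02 for Tnnt3 (0.16) and 0.25 for Mylpf (0.21). The adipocyte hormone Adipoq was at most 0.0142 CPM in controls. It was at 0.608 and 0.67 CPM in mutant replicates 2 and 3 and at most 0.0157 CPM in the other mutants. Cfd (1.37 and 1.88 CPM), Cidec (0.355 and 0.327), Retn (0.237 and 0.229), Plin1 (0.237 and 0.18) and Fabp4 (1.37 in each) were highest in the same uteri. So was Car3 among mutants, at 3.95 and 5.80 CPM, though Car3 averaged 8.7 CPM in controls, where Adipoq was near 0. The summed adipocyte markers were at 38.9 to 48.6 and 26.2 to 41.3 CPM. Of 9 tested adipocyte markers 1 passed (9.70% of all tested genes), Pck1, an enzyme of glyceride and glucose synthesis. It fell from 6.47 ± 1.68 to 1.90 ± 0.849 CPM without overlap (log2 fold change -1.77, standard error 0.32, adjusted p = 0.00806 in edgeR's test). Of the 9 log2 fold changes 6 were positive and 3 negative, with a median of 2.56. Those 6 genes were scarce, at most 1.88 CPM in any uterus. The sum was led by Lipe (26.7 CPM in controls and 21.8 CPM in mutants) and Plin4 (10.8 and 8.26 CPM), both overlapping. The part of other tissue in the Car3 counts was not tested beyond these markers.

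Car7 (ENSMUSG00000031883, chr8:104534689-104550343), a cytosolic enzyme known from neurons, was steady in controls at 3.37, 3.08, 3.16, 2.91 and 2.97 CPM. Mutant uteri had 0.502, 1.52, 2.81, 2.03 and 0.564 CPM, all below the lowest control and lowest in replicates 1 and 5. Its fitted log2 fold change was -1.06 (standard error 0.42), and -0.55 without those 2 uteri.

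Car5b (ENSMUSG00000031373, chrX:163976822-164027997), which supplies bicarbonate inside mitochondria, varied little in controls and more widely in mutants. It had 24.9, 21, 22.8, 27.0 and 25.7 CPM in controls and 14.6, 11.6, 9.92, 11.9 and 18.2 CPM in mutant uteri, with no overlap. The means of 24.3 ± 2.41 and 13.3 ± 3.24 CPM were 1.83-fold apart (log2 fold change -0.87, standard error 0.16). With 1 uterus left out the log2 fold change was -1.01 to -0.78.

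Car4 (ENSMUSG00000000805, chr11:84957786-84966044), attached to the outer membrane by a lipid anchor and known from capillary endothelium, was the member with the lowest single value. Controls had 10, 4.13, 7.18, 3.55 and 6.70 CPM. Mutant uteri had 0.0627, 1.76, 1.06, 2.57 and 1.06 CPM, all below every control, and the first of these was 4 counts. The means were 6.31 ± 2.60 and 1.30 ± 0.932 CPM, 4.85-fold lower in mutants (log2 fold change -2.28, standard error 0.63). Its place under the threshold was lost when any 1 control or 1 of mutant replicates 2, 3 and 5 was left out, at log2 fold changes of -2.43 to -2.05.

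Car9 (ENSMUSG00000028463, chr4:43506966-43513729), a transmembrane enzyme best known as a target of hypoxia-inducible factor (HIF) and overlapped on the opposite strand by Gm12454, was the scarcest member in controls. It had 0.657, 0.376, 0.533, 1.08 and 0.689 CPM in controls and 4.92, 1.96, 1.68, 2.41 and 3.11 CPM in mutant uteri. All 5 mutant uteri lay above every control, with replicates 1 and 5 highest, as for Car2. The means were 0.667 ± 0.261 and 2.82 ± 1.29 CPM, 4.23-fold higher in mutants (log2 fold change 2.08, standard error 0.36), and the log2 fold change was 1.59 without those 2 uteri.

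Car12 (ENSMUSG00000032373, chr9:66713686-66766845), a transmembrane enzyme of epithelia, varied widely within controls. Its values were 46.2, 56.5, 81.0, 25.2 and 26.8 CPM in controls and 120.1, 41.8, 38.6, 29.8 and 80.9 CPM in mutant uteri, and the groups overlapped widely. The log2 fold change was 0.40 (standard error 0.42) and turned to -0.36 without mutant replicates 1 and 5. Car14 (ENSMUSG00000038526, chr3:95897768-95904691), a transmembrane enzyme whose gene meets Aph1a on the opposite strand, was low throughout, at 1.12, 2.61, 3.37, 2.03 and 1.65 CPM in controls and 1.68, 1.08, 1.14, 0.842 and 1.22 CPM in mutant uteri. The groups overlapped, with control replicate 1 below 3 of the mutants. Its log2 fold change was -0.85 (standard error 0.30), and -1.02, on the other side of the threshold, without that control.

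Car8 (ENSMUSG00000041261, chr4:8143362-8239041), the acatalytic member that binds the inositol trisphosphate (IP3) receptor, was separated by a wide gap. Controls had 4.36, 4.50, 3.12, 4.93 and 4.02 CPM and mutant uteri 0.565, 0.828, 0.736, 1.00 and 0.854 CPM. The lowest control, at 3.12 CPM, lay well above the highest mutant, at 1.00 CPM. The means were 4.19 ± 0.680 and 0.797 ± 0.161 CPM, 5.25-fold lower in mutants (log2 fold change -2.39, standard error 0.21). With 1 uterus left out the log2 fold change was -2.49 to -2.29. The gene spans Gm11799 on its own strand and Gm25355 on the opposite strand, and whether strand was used in counting is not given in the sources used here.

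**Figure D2:**
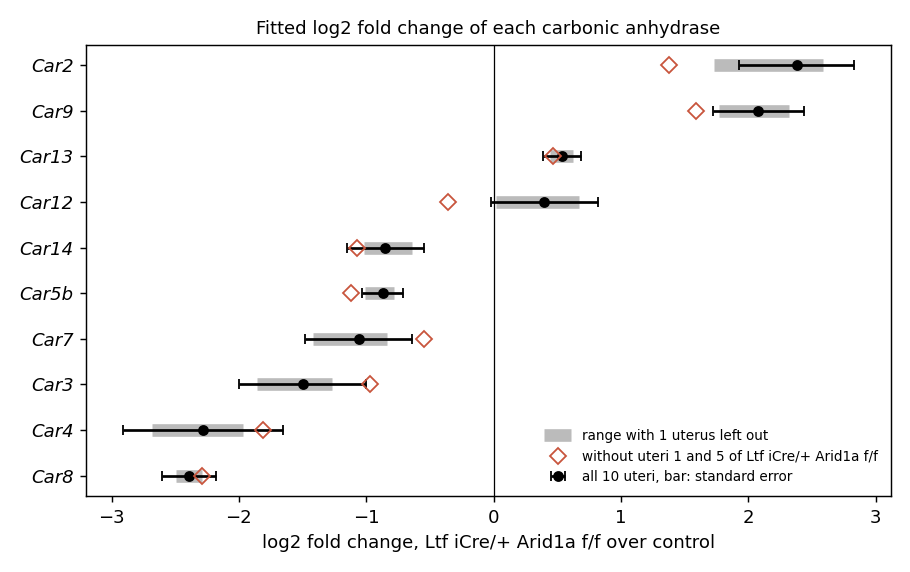
Fitted log2 fold change of each member, mutant over control, with all 10 uteri (black points, bars for the standard error), the range with 1 uterus left out (grey) and the value without mutant replicates 1 and 5 (open diamonds). Car12 crosses 0, from 0.40 to -0.36, Car2 drops from 2.38 to 1.38, and Car8 stays at -2.29.

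Levels between genes were compared as RPKM, which is CPM per kilobase of exon. In controls Car2 stood at 37.8 ± 2.67 RPKM and Car12, the next, at 6.20 ± 3.04, and these were the only neighbours in the order whose ranges did not overlap. Below them the control means ran from Car13 (4.93 RPKM), Car5b (3.82), Car4 (3.21) and Car3 (3.04) to Car8 (1.09), Car7 (0.852), Car14 (0.847) and Car9 (0.289). In mutant uteri the order opened with Car2 (197 RPKM), Car12 (8.19) and Car13 (7.17), and here Car13 also stood clear of Car5b (2.09). Then came Car9 (1.22), Car3 (1.07), Car4 (0.662), Car14 (0.469), Car7 (0.409) and Car8 (0.207). Car9 was last among controls and Car8 last among mutants, though most neighbours overlapped in range. The order below Car12 depended on the length used: per kilobase of the longest transcript, the control means ran Car5b (7.07 RPKM), Car3 (5.18), Car4 (5.03), Car13 (4.93), Car7 (1.60), Car14 (1.26), Car8 (1.09) and Car9 (0.33), which moved Car13 from place 3 to place 6 and Car8 from place 7 to place 9.

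The summed level of the 10 genes was 62.1 ± 4.34 RPKM in controls (57.5 to 66.7) and 218 ± 173 RPKM in mutant uteri (91.5 to 512), with no overlap. Without Car2 the sums were 24.3 ± 2.99 and 21.5 ± 4.94 RPKM and overlapped. Car2 made up 60.9% of the sum in controls (56.0% to 63.8%) and 87.0% in mutant uteri (80.3% to 94.6%). The 4 membrane-bound enzymes together stood at 10.6 ± 3.69 and 10.5 ± 5.23 RPKM, while their share was 16.8% and 5.62%. The mitochondrial share was 6.21% and 1.27%, and that of acatalytic Car8 1.77% and 0.141%.

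**Figure D3:**
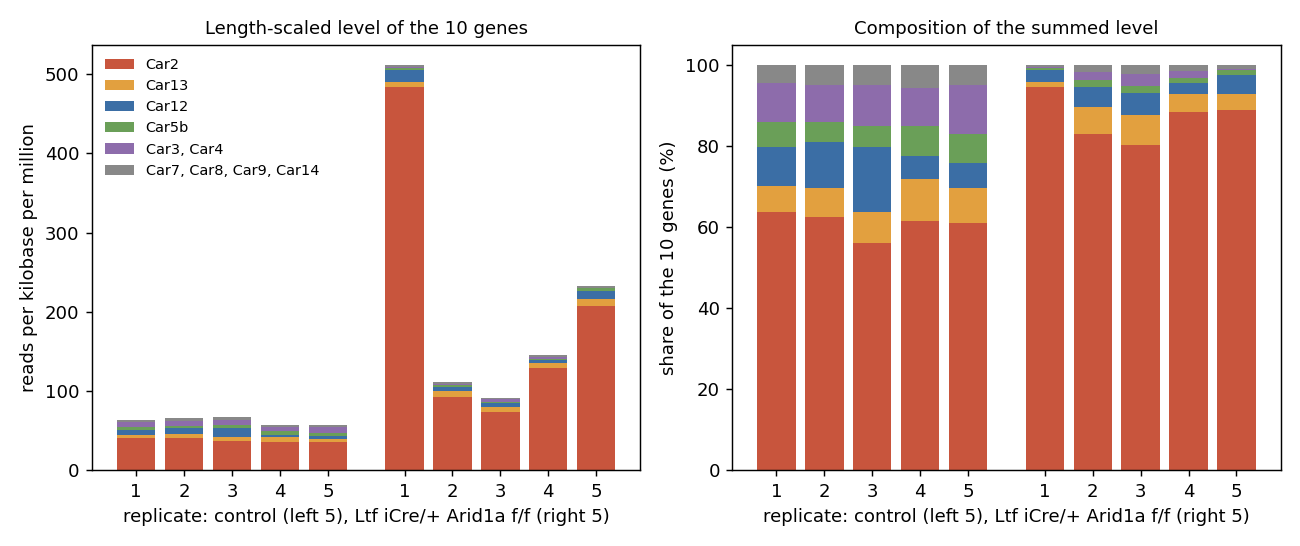
Level of the 10 carbonic anhydrase genes per length in each uterus as stacked bars, in RPKM (left panel) and as a percent of the sum of the 10 (right panel), with the 5 controls at the left of each panel and the 5 mutant uteri at the right. Car2 (red) fills 56.0% to 63.8% of each control bar and 80.3% to 94.6% of each mutant bar, and the tallest bar, replicate 1, reaches 512 RPKM.

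Markers of the cell types in the uterus also differed between genotypes. Summed epithelial markers (12 genes such as Cdh1, Krt19 and Krt18) were at 924 to 1219 CPM in controls and 1333 to 2811 CPM in mutant uteri. In edgeR's test 8 of the 12 passed as higher (5.19% of all genes), and 11 had a positive log2 fold change. Their ratios of mutant to control means ran from 0.811 for Cldn3 to 3.74 for Elf3, so a level relative to this sum depends on the markers chosen. Summed endothelial markers (8 genes such as Cdh5, Pecam1 and Kdr) were at 788 to 1062 and 403 to 549 CPM. Of these 6 passed as lower (4.51% of all genes), and all 8 had a negative log2 fold change. Neither sum overlapped between the genotypes. In whole-uterus RNA, fewer cells of a type and less RNA per cell cannot be told apart. Members were therefore also set against these sums, a choice made after seeing the data, and how far cell makeup accounts for the differences was not tested further. Neutrophil markers stood at 834 CPM in mutant replicate 5, against at most 22.9 CPM in any other uterus. Myometrial markers were at 6525 to 11447 and 3427 to 9183 CPM, with overlap. Macrophage markers were at 179 to 321 and 269 to 671 CPM, and red cell markers, of interest for Car2, at 21.1 to 79.9 and 21.8 to 103 CPM, with overlap.

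Per 1000 CPM of epithelial markers, Car2 was at 84.8 ± 9.93 in controls and 229 ± 115 in mutant uteri, 2.7-fold higher and without overlap. Car9 was at 0.610 ± 0.202 and 1.47 ± 0.205, 2.42-fold higher and without overlap. Car13 was at 10.5 ± 1.78 and 9.52 ± 2.72 on this scale and overlapped, so it was not set apart relative to these markers. Car12 was at 44.9 ± 26.4 and 31.8 ± 10.2 and overlapped as well. Car4 was 7.27-fold lower on this scale, Car5b was at 22.5 ± 2.82 and 7.38 ± 1.47, 3.04-fold lower, and Car7 at 2.88 ± 0.391 and 0.965 ± 0.785, 2.98-fold lower, each without overlap. Car14 was at 2.04 ± 1.00 and 0.661 ± 0.13, 3.08-fold lower and here without overlap. Per 1000 CPM of endothelial markers, Car4 was at 6.74 ± 2.61 and 2.72 ± 1.97, 2.48-fold lower but overlapping, where its CPM had not overlapped. Car5b was at 26.4 ± 5.39 and 28.4 ± 10.3, Car7 at 3.34 ± 0.297 and 3.02 ± 1.91 and Car14 at 2.29 ± 0.763 and 2.51 ± 0.719, all overlapping, so that the difference of these 3 members depended on the marker sum they were set against. The same held for Car13, at 12.3 ± 2.85 and 34.9 ± 9.65 per 1000 CPM of endothelial markers, 2.83-fold higher and without overlap. Car8 stayed lower without overlap on both scales, 8.15-fold per epithelial and 2.71-fold per endothelial marker CPM.

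**Figure D4:**
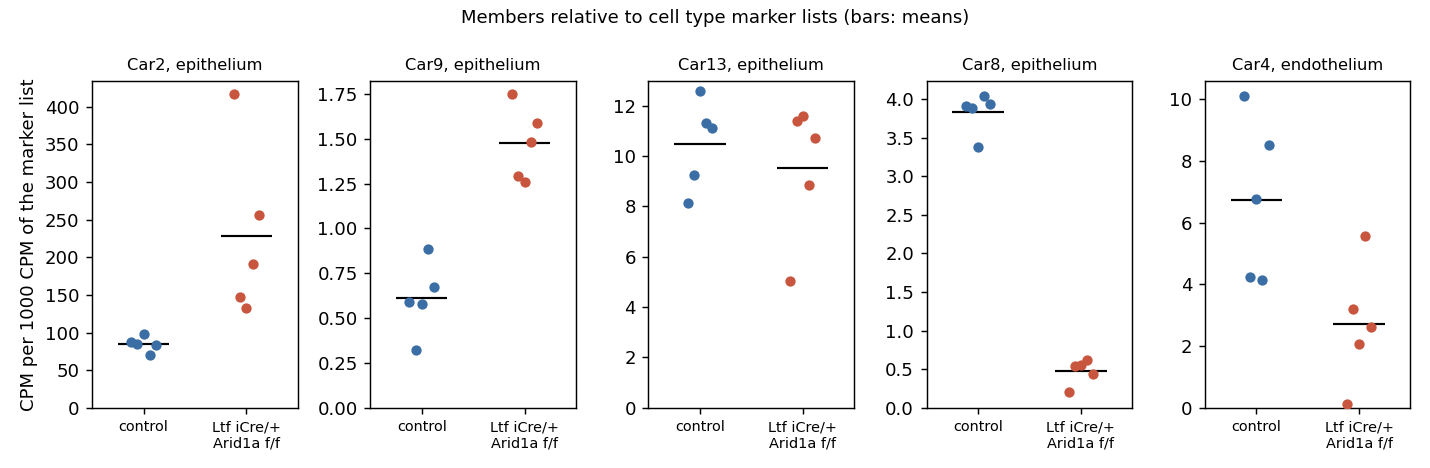
CPM of a member per 1000 CPM of summed epithelial markers (Car2, Car9, Car13, Car8) or endothelial markers (Car4), 1 point per uterus, with bars at the means (n = 5 each) and a linear axis from 0 in each panel. Car2 and Car9 stay above and Car8 below every control, and Car13 and Car4 overlap.

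Car2, Car3 and Car13 lie within 259.0 kb on chromosome 3 (14641727 to 14900770). Car3 starts 22.8 kb and Car13 245 kb before Car2. The neighbours Car3 and Car2 had log2 fold changes of opposite sign, -1.50 and 2.38. Car1, the red cell isozyme between Car13 and Car3, was at or near 0 in every uterus (at most 0.0338 CPM). Of 8 protein-coding genes within 500 kb outside the 10, Car1 among them, 5 could be tested. Of these 1 passed (9.70% of all tested genes): 1810022K09Rik, 0.44 (standard error 0.11, adjusted p = 0.0309 in edgeR's test), which overlaps E2f5 on the opposite strand. It was not past the threshold without 1 of control replicates 1 to 4 or mutant replicates 3 to 5, where 0 genes passed. The other 4 had log2 fold changes of 0.20 (Lrrcc1), 0.21 (E2f5), 0.33 (Sirpb1a) and 0.97 (Gm9733).

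**Figure D5:**
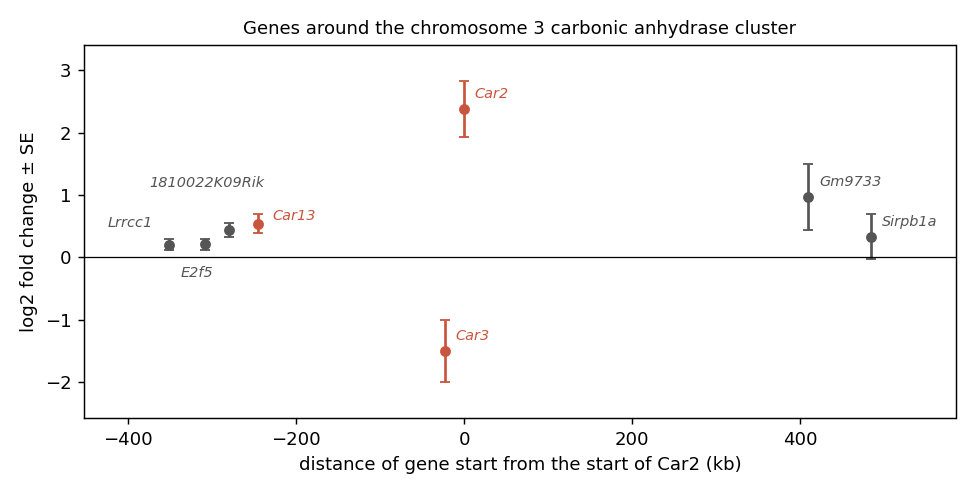
Fitted log2 fold change with its standard error for tested protein-coding genes around the chromosome 3 carbonic anhydrases, against the distance of each gene's start from that of Car2 in kb, with members in red and other genes in grey. Car2 at 2.38 and Car3 at -1.50 lie 22.8 kb apart, and Car13 at 0.54 sits beside genes between 0.20 and 0.44.

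The family genes outside the 10 were Car1, Car5a, Car6, Car10, Car11 and Car15. Of these 5 were tested and 1 passed (9.70% of all tested genes), with a median log2 fold change of -0.72. Car11 (ENSMUSG00000003273, chr7:45699843-45704682), acatalytic like Car8, fell from 16.6, 19.4, 21.6, 20.4 and 22.5 CPM in controls to 5.65, 8.38, 13.5, 11.9 and 12.3 CPM, without overlap. Its means were 20.1 ± 2.28 and 10.3 ± 3.25 CPM (log2 fold change -0.96, standard error 0.21, adjusted p = 0.0182 in edgeR's test), and with each of the 10 uteri left out in turn it passed at -1.08 to -0.81 (adjusted p = 0.0127 to 0.0497). Car5a, the other mitochondrial enzyme, was at most 0.241 CPM, the secreted Car6 at most 0.0839, the acatalytic Car10 at most 0.294 and Car15 at most 0.502 CPM. Of the 3 IP3 receptors, partners of Car8, 1 passed (9.70% of all tested genes), with a median of -0.16 over the 3. Itpr3 rose from 26.5 ± 2.72 to 46.3 ± 18.6 CPM (log2 fold change 0.80, standard error 0.23, adjusted p = 0.0496 in edgeR's test). It was not past the threshold with any 1 control or 1 of mutant replicates 1, 4 and 5 left out, where 0 receptors passed. Itpr2 did not pass but was lower in every mutant, at 200.2 to 289 CPM in controls and 48.0 to 186 CPM in mutants. Its log2 fold change was -0.75 (standard error 0.35), and that of Itpr1, which overlapped, was -0.16 (standard error 0.11).

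Bicarbonate moves across membranes through the SLC4 and SLC26 transporters and the chloride channel Cftr. Of 14 tested genes of this group 3 passed (21.4%, against 9.70% of all tested genes), with a median log2 fold change of 0.14. Cftr had 3.72, 1.58, 1.72, 5.50 and 2.30 CPM in controls and 72.6, 23.3, 13.4, 19.7 and 71.1 CPM in mutant uteri, highest in replicates 1 and 5 as were Car2 and Car9. The log2 fold change of Cftr was 3.75 ± 0.57 (standard error), at an adjusted p = 0.00324 in edgeR's test. The epithelial transporter Slc26a9 rose from 0.134 ± 0.0819 to 3.42 ± 5.37 CPM with overlap, led by replicate 5 at 12.9 CPM (log2 fold change 4.66, standard error 1.14, adjusted p = 0.0265). The sodium bicarbonate cotransporter Slc4a7 fell from 119.9 ± 9.31 to 92.0 ± 5.16 CPM (log2 fold change -0.38, standard error 0.08, adjusted p = 0.0109), without overlap.

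Protons leave cells through sodium-proton exchangers, with lactate through monocarboxylate transporters, and through the vacuolar proton pump. Of 8 tested sodium-proton exchangers 0 passed with edgeR (9.70% of all tested genes). Of them 0 had an unadjusted p under 0.05 and DESeq2 called 0, and their median log2 fold change was 0.00. Of 6 monocarboxylate transporter genes 2 passed (9.70% of all tested genes), with a median of 0.25. Emb, an accessory protein of these transporters, fell from 133 ± 16.9 to 50.0 ± 7.61 CPM (log2 fold change -1.41, standard error 0.12, adjusted p = 0.00034), without overlap. Slc16a3, the lactate exporter of glycolytic cells, rose from 4.03 ± 0.396 to 14.3 ± 15.6 CPM (log2 fold change 1.82, standard error 0.51, adjusted p = 0.0462), with 42.2 CPM in mutant replicate 5 and at most 8.25 in the other 4. With any 1 control left out, 1 of the 6 passed. Of 20 tested vacuolar proton pump subunits 5 passed (25%, against 9.70% of all tested genes), all higher, with a median of 0.06. Among them Atp6v1c2 (log2 fold change 2.27, standard error 0.60) and Atp6v0d2 (1.64, standard error 0.38) were scarce, and Tcirg1 (0.57, standard error 0.12) and Atp6v1a (0.50, standard error 0.12) were abundant and did not overlap. The count fell to 1 without control replicate 2 or 3, and to 3 without control replicate 4 or 5 or mutant replicate 4.

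Other HIF targets, set beside Car9, went both ways. Of 22 tested genes 5 passed (22.7%, against 9.70% of all tested genes), 2 higher and 3 lower, with a median log2 fold change of 0.06. The prolyl hydroxylase Egln3 rose from 5.14 ± 1.02 to 28.6 ± 30.3 CPM (log2 fold change 2.48, standard error 0.62) and lactate dehydrogenase Ldha from 329.6 ± 36.4 to 465 ± 86.4 CPM (0.50, standard error 0.13). Egln3 was at 38.9 and 77.5 CPM in mutant replicates 1 and 5. The other mutants were at 7.26 to 10.9 CPM, near the highest control at 6.93 CPM. The glycolytic regulator Pfkfb3 fell from 337 ± 42.4 to 177 ± 63.2 CPM (-0.93, standard error 0.23), and Ndrg1 from 82.7 ± 10.5 to 45.2 ± 3.61 CPM (-0.87, standard error 0.10), without overlap. The count was 1 without control replicate 1, 2 or 4, 2 without control replicate 3 or 5, and 3 without mutant replicate 1. In the 250 bases before the RefSeq start of Car9 (GRCm38.p6, chr4:43506776-43507025) there was 1 match to the HIF core ACGTG or GCGTG on either strand. It was CACGT, 18 bases before that start. The GENCODE start of Car9, 43506966, lies earlier, so the match falls inside the gene as GENCODE places it. Of all 32851 RefSeq windows of this length 38.6% held ACGTG or GCGTG and 16.6% held ACGTG, and among 6 members with windows, 5 of 8 windows held a match. A match of these letters is a description and not a bound site.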

How the data were processed

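The authors made paired end mRNA libraries from 10 uteri at GD 3.5. Per the labels and the study's methods, reads were trimmed (cutadapt 1.18, Trim Galore 0.6.4), checked with FastQC 0.11.9, aligned to GRCm38 with STAR 2.7.3a and counted per gene by STAR. The authors deposited the whole-number counts of 45706 genes, without normalization. The annotation release and strand setting are not given in the sources used here, so genes that overlap on opposite strands may share reads.

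Symbols, positions and exon lengths came from GENCODE M21 (45143 genes matched). The 25146 genes averaging 1 count or more per sample were fitted in R 4.3.3 with edgeR 4.0.16 (TMM, quasi-likelihood test with genotype alone, adjusted by Benjamini-Hochberg over all tested genes, threshold 0.05). CPM used TMM library sizes and RPKM the union of exons. Standard errors belong to the same fits. The value of 3 counts is a floor for counting error only. DESeq2 1.42.0, RLE size factors, other filters, a replicate block and the omission of uteri were alternatives. No 2 libraries of a genotype were duplicates (chi-square of at least 36.1 per gene). P-values set the genotype difference against the spread between the mice sampled, whose litters are not given. Procedures were tested on simulated data. Drawings used matplotlib 3.10.9 in Python 3.11.15.

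The members and gene lists were chosen with earlier results of these data known. Besides the members, Arid1a, Ltf and the other carbonic anhydrases, the text names up to 4 passing genes of each transporter, pump, target, receptor and chromosome 3 list with the largest absolute log2 fold change. Of cell type lists it names genes from among the 3 most abundant, not always all of them. None are named from the red cell and myometrial lists. E2f5, Lrrcc1, Gm9733, Sirpb1a, Adipoq, Cfd, Cidec, Retn, Plin1, Fabp4, Ckm, Myh1, Myh4, Mylpf, Pvalb, Cldn3, Elf3, Itpr1 and Itpr2 were added after their values were seen. Promoter windows (RefSeq, GRCm38.p6) were matched for 6 of the 10 members. The coding stretch of 1 member is not reported here.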

Additional observations from a re-analysis of the deposited data

Results flagged for a closer look

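In each group of 5 uteri, values set apart from the other 4 by more than Dixon's 95% criterion were collected for the named genes. For independent groups of normal values, chance would give about 1 in 20. CPM near 0 and genes that share a uterus need not meet this, so the rate is only a rough guide. Of 114 groups 15 stood out, and of the 20 groups of members 1 did. That member was Car3, at 3.02 CPM in control replicate 1 against 8.99 or more in the other controls. Among other carbonic anhydrases, Car1 was at 0.0338 CPM in mutant replicate 2 and 0 in the other 4. That value was 2 counts, under the floor of 3. Car15 was at 0.502 CPM in control replicate 5 against at most 0.256. Mutant replicate 5 stood apart for Slc26a9 (12.9 CPM, next 2.59), Slc16a3 (42.2 CPM, next 8.25), Csf1r (129 CPM, next 59.1), the neutrophil genes S100a9 (383 CPM, next 1.28), S100a8 (290 CPM, next 0.726) and Csf3r (90.5 CPM, next 9.12), and Ltf (2831 CPM, next 383). Replicate 1 of that genotype was lowest for Slc4a7 (83.0 CPM, next 93.0) and highest for Ldha (616 CPM, next 450.1). Among controls, replicate 2 was highest for Egln3 (6.93 CPM, next 4.98), replicate 4 for Tnni2 (20.5 CPM, next 12.5) and replicate 1 for Ltf (11.7 CPM, next 3.76).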

How the results depend on the processing

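The directions of the 10 members held under every alternative run except for Car12, which was -0.36 on the log2 scale without mutant replicates 1 and 5. The cause was not tested for this or the other differences given here. For members, the side of the threshold is given as a description only. With DESeq2, Car3 (-1.51), Car7 (-1.07) and Car14 (-0.85) were under the threshold as well, and the counts were 4103 over all genes, 5 bicarbonate transporters, 1 monocarboxylate transporter and 8 HIF targets. With the replicate number as a block, Car3 was under it (-1.66), Car4 (-2.48) and Car13 (0.54) were not, and the counts were 1 monocarboxylate transporter, 3 proton pump subunits, 2 HIF targets and 0 IP3 receptors. The numbers share no stated litter or batch, the deviations of same-numbered uteri correlated at -0.053 to 0.128, and only replicate 5 correlated best with its own number, so the block result is not read further. Without mutant replicates 1 and 5, Car13 (0.47) and the IP3 receptors (0) did not pass, and with RLE size factors 0 IP3 receptors passed. With 1 uterus left out, the log2 fold changes ranged from 1.73 to 2.59 for Car2, -1.86 to -1.27 for Car3, -2.68 to -1.97 for Car4, -1.01 to -0.78 for Car5b, -1.42 to -0.84 for Car7, -2.49 to -2.29 for Car8, 1.77 to 2.32 for Car9, 0.02 to 0.67 for Car12, 0.44 to 0.62 for Car13 and -1.02 to -0.64 for Car14. The counts ranged from 1204 (without control replicate 2; 1248 and 1414 without control replicates 3 and 4) to 2381 over all genes, 2 to 4 bicarbonate transporters, 1 to 2 monocarboxylate transporters, 1 to 6 proton pump subunits, 1 to 6 HIF targets, 0 to 1 IP3 receptors and 0 to 1 genes near the chromosome 3 members. Lengths of the longest transcript in place of the union of exons gave higher levels for some members, such as Car12 at 12.7 and 16.8 RPKM, and another order below Car12. With 4 to 63 counts in their lowest uterus, Car3, Car4, Car7, Car8, Car9 and Car14 are the members whose precision counting error limits most.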
